A study of Mus musculus with 6 samples.

Results

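The vascular and red cell genes of the fetal mouse testis were described as a set of 32 genes, 17 of endothelial cells and 15 of the erythroid lineage, out of 18194 genes named on the arrays. The genes were listed by name, and each was measured by the brightest probe set whose annotation held its symbol alone. A probe set of this kind was found for 31 of the 32 genes, 17 endothelial and 14 erythroid, and the globin chaperone gene Ahsp was not analysed here. RNA came from testes of mouse embryos at E13.5, with 3 control and 3 Dmrt1 null arrays, each labelled as a biological replicate. The control arrays carry the title wild type, while their description and genotype entries give Dmrt1 (+/-). The null arrays are Dmrt1 (-/-) by title and description, while their genotype entry reads Dmrt(flox/flox). The animals of all 6 arrays were outcrossed to 129S6/SvEvTac, and the labels name neither a Cre driver nor a treatment. Dmrt1 encodes a DM domain transcription factor of Sertoli and germ cells.

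Blood vessels of the fetal testis form from migrating endothelial cells, which are recognised by their VEGF and angiopoietin receptors, by adhesion proteins at their junctions and by ETS and SOXF transcription factors. Red cells made outside the gonad circulate through these vessels. Primitive red cells of the yolk sac carry embryonic globins, and definitive red cells of the fetal liver carry the adult ones. Erythroid genes are typically controlled by GATA1 and KLF1, and endothelial genes by ETS factors. An array of whole testis measures the RNA of all its cells together, so that fewer cells of a type and less RNA per cell cannot be told apart.

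The promoters of 6 members are printed to show 2 motif classes, the ETS core and the GATA motif. RefSeq (GRCm38.p6) gave a promoter entry for 22 of the 32 members, 10 endothelial and 12 erythroid. The 3 genes of each list that followed their list most closely over the arrays, among members with 1 entry and a window ending right before the gene record, are shown as the 250 bases before the start, 5′ to 3′ on the gene's strand. Capitals mark the ETS core AGGAAG in the endothelial and the GATA motif AGATAA or TGATAA in the erythroid promoters, on either strand.
Tie1, chr4:118489850-118490099, minus strand: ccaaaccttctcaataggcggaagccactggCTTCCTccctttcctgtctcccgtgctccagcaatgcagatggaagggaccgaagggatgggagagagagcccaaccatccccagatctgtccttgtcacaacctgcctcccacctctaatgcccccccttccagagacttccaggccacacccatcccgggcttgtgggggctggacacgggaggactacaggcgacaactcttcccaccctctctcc
Eng, chr2:32646345-32646594, plus strand: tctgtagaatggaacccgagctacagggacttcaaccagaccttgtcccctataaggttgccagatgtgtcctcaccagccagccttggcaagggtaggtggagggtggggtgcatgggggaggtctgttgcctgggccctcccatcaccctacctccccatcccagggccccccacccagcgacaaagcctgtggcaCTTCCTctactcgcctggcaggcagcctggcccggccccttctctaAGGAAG
Cldn5, chr16:18776597-18776846, plus strand: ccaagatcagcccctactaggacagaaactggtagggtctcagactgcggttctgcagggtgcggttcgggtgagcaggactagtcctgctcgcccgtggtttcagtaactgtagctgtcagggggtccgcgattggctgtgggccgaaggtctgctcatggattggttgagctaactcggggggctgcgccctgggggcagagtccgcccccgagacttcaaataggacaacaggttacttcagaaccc
Hba-x, chr11:32276350-32276599, plus strand: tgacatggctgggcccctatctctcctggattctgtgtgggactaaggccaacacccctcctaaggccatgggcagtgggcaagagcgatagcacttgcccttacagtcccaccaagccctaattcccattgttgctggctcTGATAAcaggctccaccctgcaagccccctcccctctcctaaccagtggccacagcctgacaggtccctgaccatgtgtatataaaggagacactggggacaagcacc
Alas2, chrX:150547167-150547416, plus strand: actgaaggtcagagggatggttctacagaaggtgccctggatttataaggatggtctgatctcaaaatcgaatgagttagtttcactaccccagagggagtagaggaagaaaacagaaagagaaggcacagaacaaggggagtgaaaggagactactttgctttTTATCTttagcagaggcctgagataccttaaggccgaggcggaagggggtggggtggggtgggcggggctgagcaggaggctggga
Hbb-y, chr7:103853208-103853457, minus strand: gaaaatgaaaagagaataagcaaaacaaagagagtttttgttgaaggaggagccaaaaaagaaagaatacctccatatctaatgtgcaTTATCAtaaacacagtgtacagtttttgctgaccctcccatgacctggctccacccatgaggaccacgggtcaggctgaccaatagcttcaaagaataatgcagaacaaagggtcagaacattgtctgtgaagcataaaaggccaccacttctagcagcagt
The ETS core lay 219 bases before the start of Tie1, and 52 and 6 bases before that of Eng, and these letters were not in the Cldn5 window. The erythroid Alas2 window also held the ETS core, left unmarked above. The GATA motif lay 108, 86 and 162 bases before the starts of Hba-x, Alas2 and Hbb-y. Over all entries, the ETS core was held by 7 of 10 endothelial and 3 of 12 erythroid members, against 29.5% of 32851 promoters in RefSeq. The GATA motif was held by 2 of 10 endothelial and 11 of 12 erythroid members, against 16.6% of the promoters, and Gata1 itself was the erythroid member without it. The KLF motif CCNCNCCC, searched on both strands, was held by 8 of 10 endothelial and 6 of 12 erythroid members, against 45.9%. A member with several entries was counted where any of them held the motif. The RefSeq shares count every entry singly, so the members' counts and these shares are not fully alike. These are matches of letters, not measured binding sites.

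Values below are deposited linear intensities. A difference is the mean log2 intensity of the nulls less that of the controls. The Dmrt1 probe set stood at 696, 1030 and 796 in control replicates 1, 2 and 3 and at 48.4, 26.9 and 23.8 in null replicates 1, 2 and 3, a difference of -4.72 ± 0.28 (standard error, limma adjusted p = 0.00388). Whether it lies in the deleted part of the gene is not stated. Testis markers were present on all arrays, with the Sertoli cell hormone Amh between 133 and 166. The median intensity of an array lay between 14.6 and 14.8. The ratio of 3′ to 5′ probe sets, a measure of RNA integrity, was 1.91 to 2.15 for Actb and 1.55 to 1.59 for Gapdh on 5 arrays, and 2.75 and 1.87 on null replicate 3. Of the 22082 probe sets with a mean log2 intensity of at least 4, which were the ones tested, 6 were called at an adjusted p under 0.05, which is 0.0272%. Among them 16 endothelial members (Erg lay below) and 8 of the 14 measured erythroid members passed.

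Endothelial transcripts varied widely between replicates of the same genotype. All 17 measured endothelial members had their lowest value on control replicate 2, while 16.8% of all probe sets tested had theirs there. In 16 of the 17, control replicate 2 was the lowest control and null replicate 1 the lowest null, against 19.6% of all probe sets. This pair of arrays was picked after seeing the data. The highest value lay on null replicate 3 for 14 of the 17, against 20.1%. Null replicate 3 is the array with the higher 3′ to 5′ ratios, and the part of RNA integrity in its high values was not tested.

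**Figure D1:**
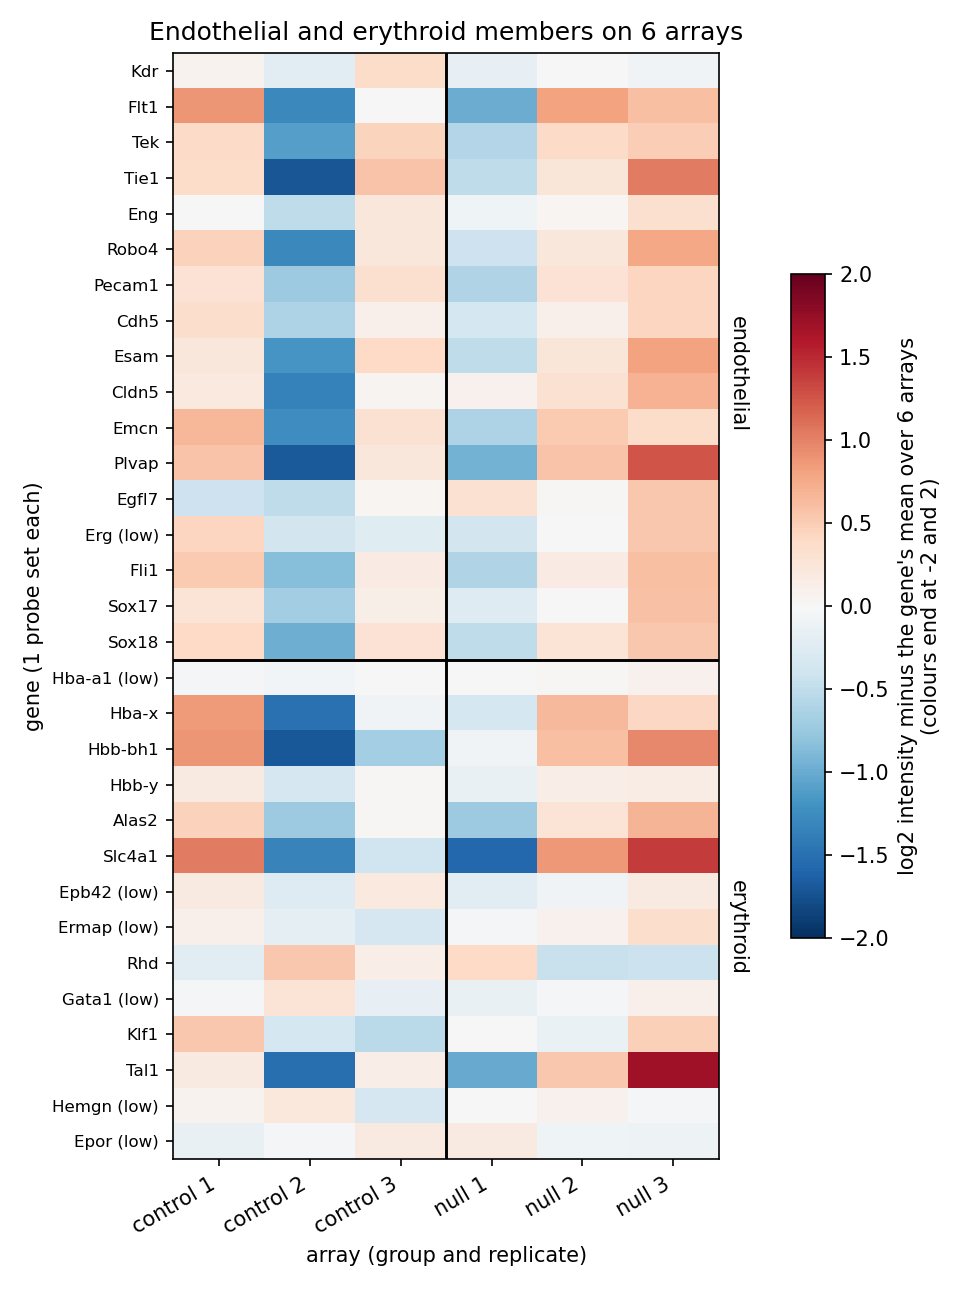
Colour shows the log2 intensity minus the gene's mean over the 6 arrays for each of the 31 measured members (rows) on each array (columns), red above and blue below the mean, with genes under the intensity minimum marked low. All 17 endothelial rows are at their lowest in the control 2 column, and in 16 of them null 1 is the lowest of the nulls.

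The growth factor receptors illustrate this. In what follows, intensities are listed for control replicates 1, 2 and 3 and then for null replicates 1, 2 and 3. Tie1, an orphan receptor tyrosine kinase that modulates angiopoietin signalling, was at 159, 37.7 and 183 in controls and 86.4, 146 and 254 in nulls. Its ligand-binding relative Tek, the angiopoietin receptor, was at 514, 183 and 538 in controls and 263, 512 and 555 in nulls. For Flt1, a high-affinity VEGF receptor, the values were 255, 56.4 and 139 in controls and 69.9, 241 and 209 in nulls. In these receptor genes control replicate 2 was low among controls and null replicate 1 low among nulls, so that the groups overlapped almost fully. The geometric mean of control replicates 1 and 3 was 4.52-fold that of control replicate 2 for Tie1, 2.87-fold for Tek and 3.34-fold for Flt1. The corresponding fold of null replicates 2 and 3 over null replicate 1 was 2.23 for Tie1, 2.03 for Tek and 3.21 for Flt1.

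Robo4, a receptor that stabilises vessels, was at 147, 43.8 and 126 in controls and 80.4, 126 and 184 in nulls. Eng, a TGF-beta co-receptor, had a narrower range, 199, 139 and 232 in controls against 188, 205 and 248 in nulls. Kdr, the main signalling receptor for VEGF-A, was at 271, 224 and 334 in controls and 232, 259 and 246 in nulls. Kdr spanned only 1.49-fold over the 6 arrays and was the 1 endothelial member with a lower mean in nulls, by a difference of -0.15 ± 0.17 (standard error, limma adjusted p = 0.865). Tie1, by contrast, spanned 6.74-fold, so that the receptors of 1 cell type did not vary to a like extent. None of the 6 receptor genes was called, and their median difference was 0.23.

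The genes of junctions and of the cell surface behaved alike. Plvap, which forms the diaphragms of endothelial fenestrae and caveolae, had the widest span of the endothelial members, 7.61-fold, with 135, 28.4 and 106 in controls and 47.0, 135 and 216 in nulls. Esam, an adhesion molecule of endothelial tight junctions, was at 384, 145 and 433 in controls and 231, 389 and 569 in nulls. Emcn, a sialomucin of veins and capillaries, was at 1470, 391 and 1140 in controls and 602, 1320 and 1190 in nulls. The low value was on control replicate 2 each time, and null replicate 1 held the next. The junctional adhesion protein Pecam1 was at 132, 65.3 and 135 in controls and 71.7, 133 and 146 in nulls. Cdh5, the cadherin of endothelial adherens junctions, was at 72.5, 37.0 and 61.1 in controls and 44.4, 61.0 and 76.6 in nulls. Cldn5, a tight junction claudin, departed from the others on null replicate 1, with 215, 73.3 and 195 in controls and 199, 231 and 304 in nulls. There null replicate 1 stood between the values of the higher controls, and control replicate 2 alone was low. Cldn5 had a difference of 0.73 ± 0.39 (standard error, limma adjusted p = 0.774), which is 1.66-fold with a 95% confidence interval of 0.884 to 3.11. None of the 6 genes was called, and their median difference was 0.27.

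Egfl7, a secreted factor that endothelial cells deposit around themselves, had the smallest p of all members. Its intensity was 297, 280 and 409 in controls and 490, 404 and 578 in nulls, and the groups overlapped by 1 pair of arrays, control replicate 3 and null replicate 2. The difference was 0.58 ± 0.19 (standard error), or 1.50-fold with a 95% confidence interval of 1.10 to 2.03, with an unadjusted limma p of 0.0157 and an adjusted p of 0.773. The other 3 probe sets of Egfl7 had differences of 0.61, 0.49 and 0.51, all with the lowest value on control replicate 2. On the brightest probe set Egfl7 also followed the other endothelial members least. There null replicate 1 was not the lowest null, and control replicate 1 lay close to control replicate 2. Of the other probe sets, 1 was like it, with nulls at 76.6, 72.7 and 98.7 and control replicates 1 and 2 at 54.1 and 52.0. In the others null replicate 1 was the lowest null, with nulls at 69.9, 84.0 and 124 and at 42.8, 43.8 and 72.6. Their control replicates 1 and 2 were at 55.2 and 49.5 and at 36.0 and 27.5.

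The transcription factors shared the pattern of the surface proteins. Sox18, a SOXF factor of endothelial differentiation, was at 74.3, 28.6 and 69.3 in controls and 39.6, 68.2 and 82.1 in nulls. Sox17, a SOXF factor tied to arterial fate, was at 116, 59.4 and 104 in controls and 80.2, 95.5 and 145 in nulls. Fli1, an ETS factor, was at 543, 210 and 426 in controls and 250, 425 and 578 in nulls. In all 3 the order of the low arrays was again control replicate 2 and then null replicate 1. The ETS factor Erg, under the intensity minimum and so untested, was at 18.6, 10.7 and 11.7 in controls and 10.7, 13.7 and 20.1 in nulls. The differences of Sox18, Sox17 and Fli1 were 0.20, 0.21 and 0.11, none called.

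How closely each gene followed its list was described by the Pearson correlation over the 6 arrays between its log2 intensity and the median of the other endothelial members. The correlations ranged from 0.43 for Egfl7 to 1.00 for Sox18 with a median of 0.96, and 13 of 17 were at least 0.9. Kdr had 0.57. All members were read on the same 6 arrays, and the 2 low arrays carry much of the spread. Over the 4 arrays other than control replicate 2 and null replicate 1, the correlations ran from -0.67 to 1.00 with a median of 0.82.

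Among the erythroid genes, Tal1, Slc4a1, Hbb-bh1 and Hba-x spanned the widest ranges over the arrays. Hba-x, the embryonic zeta globin, was at 3040, 603 and 1610 in controls and 1330, 2660 and 2250 in nulls. The embryonic beta-like globin Hbb-bh1 was at 1420, 238 and 479 in controls and 730, 1170 and 1500 in nulls. Hbb-y, the epsilon globin of primitive red cells, was near the top of the scale at 14100, 9850 and 12600 in controls and 11200, 13700 and 13800 in nulls, where the brightest value of the table was 18900. These 3 globins all had their lowest value on control replicate 2, and the span over the 6 arrays was 5.04-fold for Hba-x, 6.30-fold for Hbb-bh1 and 1.43-fold for Hbb-y. Hbb-bh1 had the largest difference of all members, with a mean of 712 ± 625 over the controls and of 1130 ± 386 over the nulls (SD, n = 3 per group). On the log2 scale it was 0.99 ± 0.58 (standard error, limma adjusted p = 0.778), or 1.99-fold with a 95% confidence interval of 0.785 to 5.06. Its other 2 probe sets gave 0.83 and 1.08.

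For the adult globins, the readings depended on the probe set. Hbb-b2, an adult beta globin, was at 6160, 6210 and 6050 in controls and 6070, 5420 and 5890 in nulls. Hba-a2, an adult alpha globin, was at 3240, 3420 and 3150 in controls and 3350, 3270 and 2740 in nulls. Neither was low on control replicate 2, and their differences were -0.09 and -0.07. The single-symbol probe set of Hba-a1, a member, was under the intensity minimum at 3.15 to 3.48 on all arrays. Another single-symbol probe set of Hbb-b2 was also under it, at 9.35 to 11.5. A further 3 probe sets are annotated to Hba-a1 and Hba-a2 jointly and so name neither gene, and they were examined after the other values were seen. The brightest of them was at 6390, 4070 and 5800 in controls and 4400, 5960 and 6680 in nulls. All 3 had their lowest value on control replicate 2, spans of 1.64-fold to 2.12-fold over the arrays, and differences between 0.07 and 0.16, none called. They thus showed the low arrays of the members, which the single-symbol probe set of Hba-a2 did not. The probe set annotated jointly to 4 adult beta globin genes was at 5180, 5580 and 5980 in controls and 5630, 5800 and 5560 in nulls, with no low value on control replicate 2. Near-identical globin copies can share probes, and which of these readings follows the alpha globin RNA was not tested.

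Alas2, the erythroid enzyme of the initial step of haem synthesis, was at 143, 63.0 and 106 in controls and 62.5, 125 and 167 in nulls. Slc4a1, the anion exchanger band 3 of the red cell membrane, was at 497, 96.5 and 184 in controls and 81.6, 445 and 639 in nulls. For both genes null replicate 1 was as low as or lower than control replicate 2. Slc4a1 spanned 7.83-fold within the nulls alone, and its difference of 0.46 ± 0.82 (standard error, limma adjusted p = 0.916) was far inside that spread. A further probe set of Slc4a1 gave 0.29. Rhd, the Rhesus blood group protein, ran the opposite way, with 17, 28.8 and 21.8 in controls and 26.2, 14.6 and 14.7 in nulls. Its highest value lay on control replicate 2, its correlation with the other erythroid members was -0.92, and its difference was -0.31 ± 0.29 (standard error, limma adjusted p = 0.837). Rhd was dim on every array.

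Tal1, a basic helix-loop-helix regulator of blood and endothelial progenitors, had the widest span of all members, 9.24-fold. It was at 67.7, 21.0 and 65.5 in controls and 29.7, 86.9 and 194 in nulls. Over the 6 arrays its correlation was 0.85 with the other erythroid members and 0.93 with the endothelial ones. The difference of Tal1 was 0.81 ± 0.70 (standard error, limma adjusted p = 0.825). Klf1, the Kruppel-like activator of adult beta globin, was just above the intensity minimum at 23.7, 12.7 and 11.2 in controls and 16.2, 14.9 and 22.7 in nulls. The other regulators were too dim to test. Gata1, the central erythroid GATA factor, lay between 5.97 and 8.07 on the 6 arrays. Hemgn, a nuclear protein of blood progenitors, lay between 6.75 and 9.83, and Epor, the erythropoietin receptor, between 7.04 and 8.85. The membrane genes Epb42 and Ermap lay between 4.12 and 5.61 and between 11.9 and 19.1.

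Between the genotypes, no member was called, 0 of 16 endothelial and 0 of 8 erythroid members tested by limma, beside 0.0272% of all probe sets. At an unadjusted p under 0.05 there was 1 endothelial member, Egfl7, and 0 erythroid members, against 1333 of the 22082 probe sets. Adjusted p ranged from 0.773 to 0.969 for endothelial and from 0.778 to 0.945 for erythroid members. The null mean was higher for 15 of 16 endothelial and 7 of 8 erythroid members tested, while 51.9% of all probe sets tested were higher. The members share a source of variation over arrays, so these counts are not independent observations. The groups overlapped in all 24 members tested, while they did not overlap in 12.8% of all probe sets. The median difference was 0.20 over 17 endothelial members and 0.12 over 14 erythroid members, or 0.35 over the 8 tested, against 0.01 over all probe sets tested.

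The direction for the endothelial genes changed with the low arrays that were kept. Without control replicate 2, and with null replicate 1 kept, their median difference was -0.17. Of the 31 members of both lists, 19 changed sign there. Without null replicate 1 alone the endothelial median was 0.53. The erythroid median was 0.02 when control replicate 2 was left out. Omitting null replicate 3 gave 0.04 and omitting null replicate 2 gave 0.07, while omitting control replicate 1 gave 0.31 and omitting null replicate 1 gave 0.24. Leaving out null replicate 3 gave an endothelial median of 0.04, and leaving out control replicates 1 and 3 in turn gave 0.44 and 0.37. With control replicate 2 and null replicate 1 both left out, a choice made after seeing the data, the endothelial and erythroid medians were 0.10 and 0.15. In that setting 2 of the 31 members changed sign and 0 were called.

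**Figure D2:**
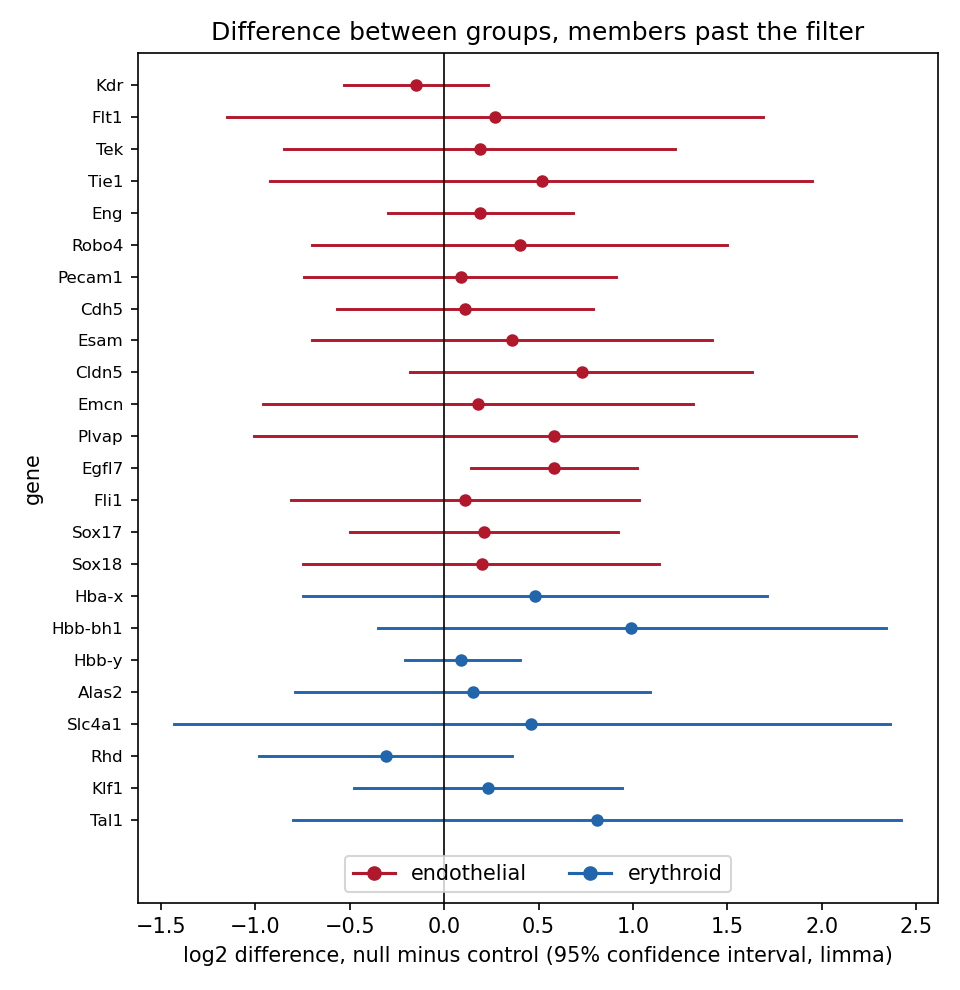
Points give the log2 difference of null minus control for each of the 24 members past the intensity minimum, and bars the 95% confidence interval from limma. The interval of Egfl7 lies above 0 before adjustment, and the other 23 include 0.

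The spread behind these intervals was large for both lists. The residual standard deviation within groups had a median of 0.67 on the log2 scale over the endothelial members and 0.79 over the erythroid members tested, against 0.175 over all probe sets. Over the 8375 probe sets of mean log2 intensity from 6 to 9 the median was 0.198. The range within the controls exceeded the absolute difference between groups in 16 of 17 endothelial and 13 of 14 erythroid members, against 80.3% of all probe sets tested. Within the nulls this held for 15 of 17 and 14 of 14, against 85.7%. Both shares are high for any probe set, so these counts say little about the members.

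The gap of control replicate 2 from its own group was at least 2-fold (geometric mean of control replicates 1 and 3 over control replicate 2) in 11 of 17 endothelial and 4 of 14 erythroid members, against 1.1% of all probe sets tested. Its median was 1.33 on the log2 scale for endothelial members, with a range of 0.32 to 2.18, and 0.40 for erythroid members, with a range of -0.58 to 1.88. The 8 erythroid members tested had a median of 1.31. Null replicate 1 lay at least 2-fold under the geometric mean of null replicates 2 and 3 in 6 endothelial and 3 erythroid members, against 1.52% of all probe sets. Those gaps had medians of 0.92 and 0.26, and -0.03 over all probe sets. The 2 arrays were chosen for these gaps after the members were seen to be low on them. The excess over all probe sets therefore describes that choice and is no separate result. The members also vary together, so the counts are not independent observations.

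**Figure D3:**
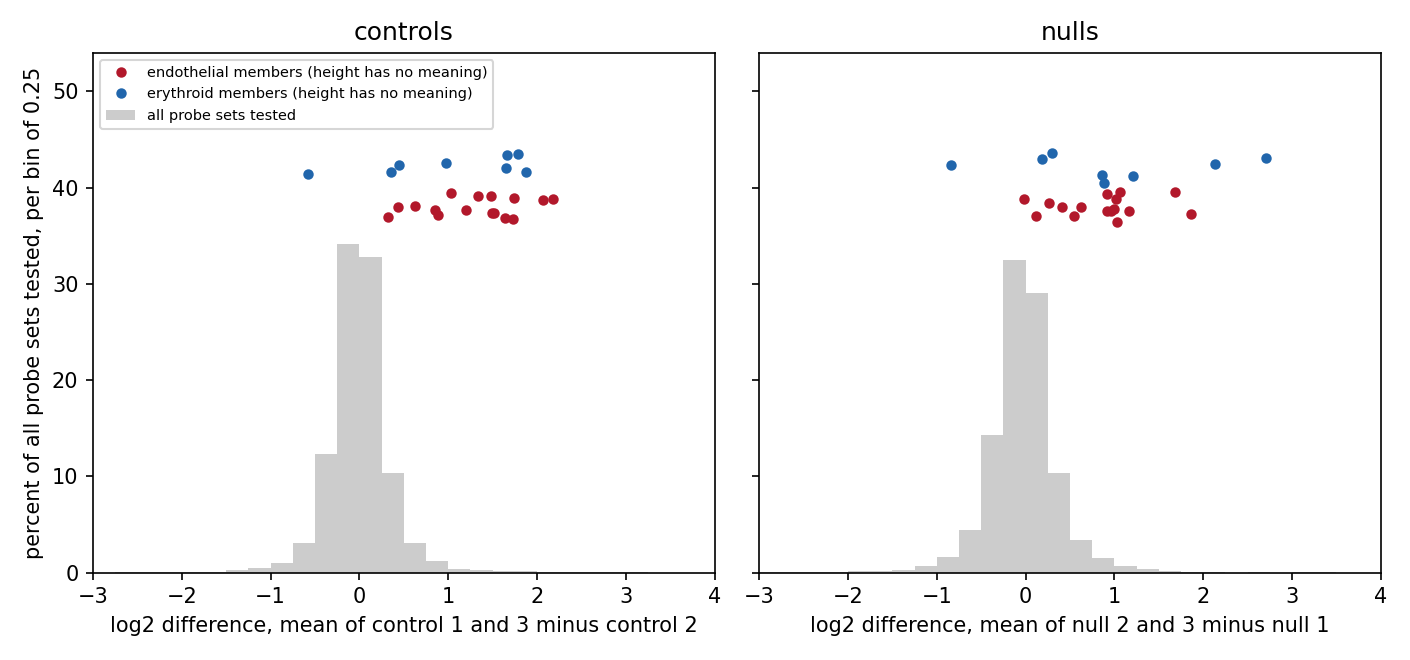
Grey bars show the percent of all tested probe sets in bins of 0.25 log2 units, for the gap of control replicate 2 from the other controls (left) and of null replicate 1 from the other nulls (right). Points are the 16 endothelial and 8 erythroid members tested, placed at an arbitrary height, and most lie to the right of the bulk of the bars. Both arrays were chosen after the members were seen to be low on them.

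The lists as a whole can be compared by their level on each array, which is the median of its members' log2 intensities, each taken relative to the gene's 6-array mean. Over all 14 measured erythroid members the level was 0.18, -0.30 and -0.04 in controls and -0.11, 0.09 and 0.27 in nulls. Over all 17 endothelial members it was 0.37, -0.98 and 0.22 in controls and -0.50, 0.24 and 0.54 in nulls. Both list levels were lowest on control replicate 2 and highest on null replicate 3. By member this was less uniform in the erythroid list, where 6 of 14 were lowest on control replicate 2 and 6 highest on null replicate 3. The shares over all probe sets tested were 16.8% and 20.1%. Of the 14, 4 were lowest on control replicate 3 and 3 highest on control replicate 2. With the 8 erythroid members tested, the level was 0.50, -1.03 and -0.03 in controls and -0.25, 0.40 and 0.58 in nulls, a wider profile than with the 6 dim genes included. Control replicate 3 lay below control replicate 1 in both full lists, and the wider gap between them is seen in the 8 erythroid members tested alone. The endothelial null mean was 0.23 above the control mean, beside standard deviations of 0.74 in controls and 0.54 in nulls (n = 3 each). The median difference of the erythroid list minus that of the endothelial list was -0.08, and 0.15 over the members tested.

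**Figure D4:**
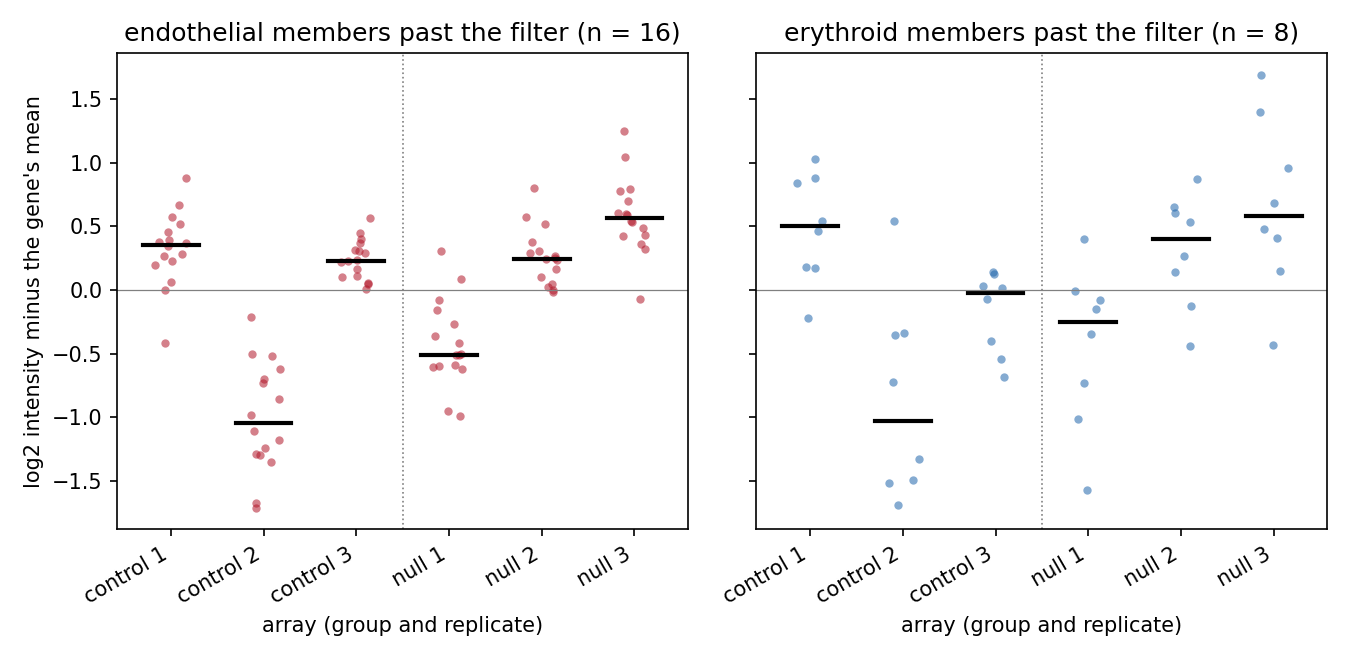
Each point is a member's log2 intensity minus its mean over 6 arrays, for the 16 endothelial (left) and 8 erythroid (right) members tested, and black lines are the medians per array. Control 2 has the lowest line in both panels, at -1.05 and -1.03, and null 3 the highest, at 0.57 and 0.58.

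Further endothelial genes showed a smaller form of the same pattern. Of 25 tested, 20 had a higher mean in nulls and 5 a lower one, 0 were called (1 at an unadjusted limma p under 0.05), and 20 were lowest on control replicate 2. Palmd had the smallest p, with 21.3, 19.9 and 29.2 in controls and 31.6, 31.5 and 33.7 in nulls (limma adjusted p = 0.773). The level of this list was 0.15, -0.65 and 0.17 in controls and -0.19, 0.18 and 0.45 in nulls. Among 13 arterial genes tested, 7 were higher and 6 lower, and 0 were called (2 unadjusted). The gap junction gene Gja4 at 0.71 and the receptor gene Notch4 at 0.64 had the smallest p (limma adjusted p = 0.773 for each). Groups did not overlap in these 2 of the 13 and in 1 of the 25 further endothelial genes, Palmd. The share over all probe sets tested was 12.8%, so these counts say little about the genes. Of 8 venous and lymphatic genes 5 were higher and 3 lower, again with 0 called (0 unadjusted). Nr2f2, which specifies veins, was at 3960, 3200 and 3940 in controls and 2970, 3430 and 3960 in nulls. Pericyte genes, of which 10 were tested, had 8 higher, 2 lower and 0 called (0 unadjusted). Genes with control replicate 2 the lowest control and null replicate 1 the lowest null were also counted. They were 16 of the 25 further endothelial, 7 of the 13 arterial, 6 of the 8 venous and lymphatic and 2 of the 10 pericyte genes. The share over all probe sets was 19.6%, and this pair of arrays was picked after seeing the data.

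The rest of the red cell programme had flatter list levels, although some of its genes shared the low arrays. Of 17 haem and iron genes tested, 10 were higher and 7 lower with 0 called (1 unadjusted), and the level of the list stayed between -0.04 and 0.02 on all arrays. The 7 further red cell membrane genes had levels between -0.09 and 0.07, with 4 higher, 3 lower and 0 called (0 unadjusted). Among 20 further erythroid regulators, 11 were higher, 9 lower and 0 called (1 unadjusted), with levels between -0.10 and 0.08. Control replicate 2 was the lowest control and null replicate 1 the lowest null in 4 of the 17 haem and iron genes, 3 of the 7 membrane genes and 8 of the 20 regulators, against 19.6% of all probe sets. Lmo2, a partner of Tal1 chosen after its values were seen, was among them, with 358, 166 and 354 in controls and 247, 308 and 405 in nulls. Many of the genes in these lists are also expressed outside red cells.

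Other cell types varied over the same arrays. The fetal Leydig cell markers, 8 tested of 12 listed, had a level of -0.48, 0.45 and 0.60 in controls and 0.96, -0.54 and -0.78 in nulls, highest on null replicate 1. The germ cell markers, 13 tested of 16, had -0.08, 0.37 and 0.00 in controls and 0.08, -0.06 and -0.21 in nulls, highest on control replicate 2. The level of the Sertoli cell markers, 12 tested of 15, stayed between -0.11 and 0.14. Of these 12, 1 was called and 3 had an unadjusted limma p under 0.05. The called gene was Cst9, a cystatin of Sertoli cells, at 3040, 3460 and 2940 in controls and 1180, 860 and 1150 in nulls, a difference of -1.58 ± 0.13 (standard error, limma adjusted p = 0.0271). Of 10 fetal liver markers 3 were tested, with levels from -0.46 to 0.21 and the highest on control replicate 2. Afp, the fetal albumin-like protein of liver and yolk sac, was at 18.4, 233 and 14.5 in controls and 54.3, 19.9 and 18.1 in nulls. The high arrays of Afp were thus the ones low in endothelial transcripts, which did not hold for the other liver markers tested. Apoa1, with the smallest p of the list (limma adjusted p = 0.786), was at 23.1 on control replicate 2, its highest control. Its lowest null was null replicate 1, at 21.0 against 22.4 and 23.3. Ahsg was highest on control replicate 1, at 21.0, with 17.2 on control replicate 2. The list level was 0.08 on null replicate 1 and 0.1 on null replicates 2 and 3. The table holds no 0, its lowest value being 1.68. The part of these cell types in the endothelial and erythroid levels was not tested.

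**Figure D5:**
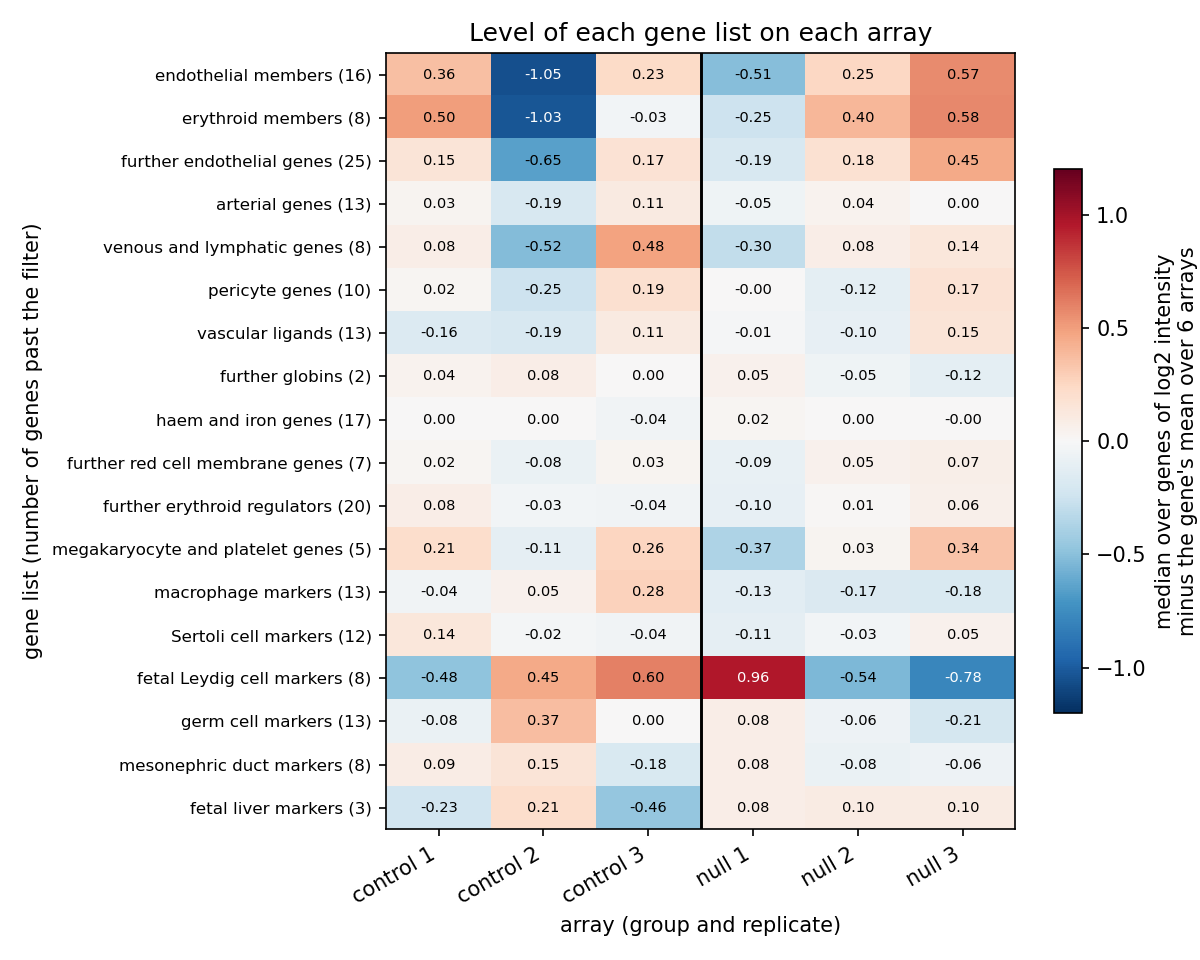
Each cell gives the level of a gene list on an array, the median over its tested genes of the log2 intensity less the gene's 6-array mean, with the number of genes in brackets. The endothelial and erythroid rows are lowest on control 2, where the germ cell row is highest at 0.37, and the Leydig row is highest on null 1 at 0.96.

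Control replicate 3 and null replicate 2 carry the same leading number in their descriptions, whose meaning is not given. Null replicate 2 minus control replicate 3 had a median of -0.02 over endothelial members, with a range of -0.37 to 0.79 and 5 of 17 above 0. Over erythroid members the median was 0.32, with a range of -0.58 to 1.29 and 11 of 14 above 0. This is 1 array against 1, with no replicate check.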

How the data were processed

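RNA of E13.5 testes was amplified and labelled with biotin for 6 arrays, per the labels' protocols. The authors deposited linear intensities made by GCRMA (version not stated), per the submitters' processing notes. The method subtracts background and normalizes between arrays, so folds of dim genes depend on it. Arrays were grouped by title. Gene symbols came from GEO's platform annotation, and a gene was measured by its brightest probe set with 1 symbol.

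Log2 values were used without a pseudocount. Of 45101 probe sets, the 22082 with a mean log2 of at least 4 over the arrays entered 1 fit in limma 3.58.1 (R 4.3.3) by group alone. Its empirical Bayes step used an intensity trend, and p-values were adjusted by Benjamini-Hochberg over all of these probe sets. A call is an adjusted p under 0.05, two-sided. The fit was tested on simulated data with independent noise for each probe set and array. That simulation lacks the variation shared by genes over arrays, so it does not check the fit under such variation. The number of arrays limits the precision. Named genes are all members, Dmrt1, a few genes fixed by name and, per list, called genes or the 2 of smallest p. Amh was chosen after its values were seen. The members and lists were chosen with earlier results of these data known. Alternatives covered the filter, scaling, variance model, array weights, the replicate block, probe set choice and leaving out arrays.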

Additional observations from a re-analysis of the deposited data

How the results depend on the processing

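No member was called under any of the 18 alternatives that tested members (smallest limma adjusted p 0.491, with array weights), and 42 of 524 member values changed sign. Omitting control replicate 2 changed the sign of 19 members, null replicate 3 of 10, null replicate 2 of 4, control replicate 3 of 2, null replicate 1 of 2 and control replicate 1 of 0. Over these omissions of 1 array, the log2 differences of the 22 members that changed sign ran from -0.32 to 0.527 for Tek, -0.018 to 0.352 for Eng, -0.258 to 0.406 for Pecam1, -0.307 to 0.833 for Flt1, -0.21 to 0.929 for Tie1, -0.145 to 0.728 for Robo4, -0.169 to 0.321 for Cdh5, -0.136 to 0.704 for Esam, -0.399 to 0.556 for Emcn, -0.107 to 1.205 for Plvap, -0.131 to 0.358 for Erg, -0.286 to 0.442 for Fli1, -0.085 to 0.398 for Sox17, -0.246 to 0.503 for Sox18, -0.148 to 1.019 for Hba-x, -0.054 to 0.205 for Hbb-y, -0.172 to 0.553 for Alas2, -0.117 to 1.368 for Slc4a1, -0.133 to 0.085 for Gata1, -0.116 to 0.155 for Hemgn, -0.102 to 0.077 for Epor and -0.225 to 0.015 for Epb42. Array weights turned Tek to -0.058, Eng to -0.005 and Pecam1 to -0.05. Without both control replicate 2 and null replicate 1, chosen after seeing the data, Emcn was -0.047 and Gata1 0.146. The erythroid median was 0.465 with a minimum mean log2 of 6, 0.474 with array weights and 0.349 over members past the filter, settings that leave out dim members by construction. It was 0.305 with the mean over probe sets, which also leaves them out, and 0.072 with probe sets prone to shared binding left out. With array weights, which leave out the dim members too, the endothelial median was 0.052 and the erythroid minus endothelial difference 0.422, and that difference was 0.146 when dim members alone were left out. The count of all probe sets called, 6 with all arrays, was 1 without an intensity trend, 0 with the replicate block, and 0 to 4 with single arrays left out, where fewer samples were fitted. The causes of the other shifts were not tested. Whether replicate numbers pair the samples was not settled. Deviations of same-numbered arrays from their group means correlated at -0.587, -0.339 and 0.145. These cannot decide it, since they also hold the variation between arrays described above. The replicate block left the members' medians at 0.197 and 0.121, with a smallest member adjusted p of 0.961 in limma. The count of all called probe sets was not computed with probe sets prone to shared binding left out.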

Other observations

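Macrophage markers had a lower mean in nulls for 12 of 13 tested, with a median difference of -0.31 and 0 called (2 at an unadjusted limma p under 0.05). Their level, by replicate number, was -0.04, 0.05 and 0.28 in controls and -0.13, -0.17 and -0.18 in nulls. Mrc1, a mannose receptor of tissue macrophages, had the smallest p among them, at -0.54 ± 0.16 (standard error, limma adjusted p = 0.773). The macrophage level was thus not low on control replicate 2, where endothelial members were lowest.

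Platelet-lineage genes were mixed. Of 5 tested, 3 were higher and 2 lower in nulls with 0 called (1 unadjusted). The integrin gene Itgb3 had a difference of -0.53 ± 0.16 (standard error, limma adjusted p = 0.773). Clec1b and Mmrn1, chosen after their values were seen, resembled the endothelial members. Clec1b, a receptor of platelets, was at 86.4, 15.7 and 43.1 in controls and 40.9, 75.5 and 121 in nulls. Mmrn1, a multimerin of platelets and endothelium, was at 102, 22.9 and 99.3 in controls and 48.2, 79.2 and 113 in nulls.

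The vascular ligand genes were mixed, with 7 of 13 tested higher and 6 lower in nulls. Control replicate 2 was the lowest control and null replicate 1 the lowest null in 4 of them. Angpt1, a ligand of Tek chosen after its values were seen, was at 183, 102 and 159 in controls and 105, 175 and 190 in nulls. Vegfa, the principal vascular growth factor, had a difference of -0.12 and Angpt2, a further ligand of Tek, one of -0.22, with 0 of 13 ligand genes called (0 unadjusted).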
